A study of Homo sapiens with 18 samples.

Results

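The genes described here are the cyclins, cyclin-dependent kinases and kinase inhibitors that govern the passage of cells from G1 into S phase. They are 10 of the 20329 genes counted in each sample, namely 3 D cyclins (CCND1, CCND2, CCND3), 2 E cyclins (CCNE1, CCNE2), 3 kinases (CDK2, CDK4, CDK6) and 2 inhibitors (CDKN1A, CDKN1B). The genes were picked by name and function, but CCND1 and CDKN1A were selected on their measured levels in these same samples, so both are described without a test. The other 8 are given with p-values adjusted over all genes tested, and since the whole list was chosen with results of these samples known, their calls are not independent evidence about it. All 10 members passed the filter on low counts in every comparison.

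Polyadenylated RNA of HAP1 cells, a near-haploid human line derived from a chronic myeloid leukemia and carrying mutant p53, was sequenced in 18 samples of 6 groups with 3 samples each. Set A held control HAP1 cells, *ΔWAPL* cells of clone 3.3, *ΔSCC4* cells, and *ΔWAPL*/*ΔSCC4* cells in which SCC4 had been disrupted on top of the WAPL knockout of clone 3.3. Set B held its own controls and *ΔWAPL* cells of clone 1.14. WAPL had been disrupted with a Blasticidine cassette and SCC4 with a Puromycin cassette, so the knockout cells carry drug markers that the controls lack. Each *ΔWAPL* group is 1 clone, and the labels give no clone number for *ΔSCC4*. Each *ΔWAPL* clone was compared with the controls of its own set, so the clone and the set cannot be told apart, and all values are those of dividing cell populations in which a change per cell and a change in the share of cells in one phase cannot be told apart. Nothing in the labels states that the 3 samples of a group were separate cultures, so the p-values measure the spread between these samples.

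D cyclins bind CDK4 and CDK6 and E cyclins bind CDK2, and these complexes phosphorylate the retinoblastoma protein, which releases E2F factors to switch on the genes of DNA replication. CDKN1A (p21) and CDKN1B (p27) bind cyclin-CDK complexes and restrain CDK2. CDKN1A is a classical target of p53, whereas CCND1 is known as an immediate target of mitogen signalling through ERK. WAPL releases the cohesin ring from DNA, and SCC4, encoded by MAU2, works with SCC2 to load it.

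The groups were made with 2 guides, printed here because they define which gene each line lost. Lower-case letters are the cloning end of the oligonucleotide and capitals the bases that match the genome.
WAPL guide: caccgCGTTCCATAGTATCCTGTA
SCC4 guide: caccgTACGGGCCTCGATGCGCTG
In GRCh37 the WAPL guide matched chr10:88259864-88259882 on the plus strand, in coding sequence of exon 3 of 19 of WAPL, next to a TGG motif. The SCC4 guide matched chr19:19431849-19431867 on the minus strand, in coding sequence of exon 1 of 19 of MAU2, next to a CGG motif. MAU2 RNA was between 0.509 and 1.05 CPM (read counts scaled to a common library size with TMM factors) in the 6 samples without SCC4 and between 52.1 and 72.7 CPM in the other 12. WAPL RNA was between 38.0 and 50.2 CPM in the 9 samples without WAPL and between 68.0 and 131 CPM in the 9 with it, so transcripts of the disrupted gene were still counted. Both genes thus went with the labels in every sample.

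Total counts on genes ranged from 10007646 to 20711127 per sample. Between the control sets, 80 of 12509 genes passed the threshold, an adjusted p under 0.05. Among 10058 well expressed genes, the second control of set B had 110 genes lower than both other controls of that set by more than 1 on the log2 scale. The first sample of clone 1.14 had only 2 genes that far above both others, and CDKN1A was one of them. Of 11 measured markers of blood, fibroblast, epithelial and endothelial cells, SPI1 had no reads and the sum over all 11 was 13.8 to 15.8 CPM in control A, 16.5 to 21.7 in clone 3.3, 12.1 to 12.9 in *ΔSCC4*, 28.7 to 33.3 in *ΔWAPL*/*ΔSCC4*, 22.8 to 23.8 in control B and 20.1 to 21.7 in clone 1.14. Most of this sum was COL1A1, a fibroblast collagen, which rose by 1.15 ± 0.13 in *ΔWAPL*/*ΔSCC4* against control A (edgeR adjusted p = 0.000200). EPCAM, an epithelial marker of at most 1.76 CPM, fell in clone 3.3 (-1.93 ± 0.42, edgeR adjusted p = 0.00834) and had a log2 fold change of -3.89 ± 0.34 in clone 1.14 (edgeR adjusted p = 0.000322). Their part in the results was not tested.

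In control cells the kinases and the inhibitor CDKN1B far exceeded CCND1, which was the least abundant of the 10 genes. Per kilobase of the canonical transcript, CDK4 stood first in control A with 169 ± 25.5 CPM per kb (SD, n = 3). CDK2 followed with 56.1 ± 4.37 and CCND3 with 54.6 ± 7.79 CPM per kb, a pair whose levels overlapped. CDKN1B was at 34.5 ± 4.76, CCNE1 at 16.1 ± 0.830, CCNE2 at 13.4 ± 0.501 and CDK6 at 7.78 ± 2.76 CPM per kb. At the low end stood CDKN1A with 4.31 ± 0.760, CCND2 with 2.89 ± 0.653 and CCND1 with 1.25 ± 0.187 CPM per kb. Over the 18 samples the highest CPM was 9.58 times the lowest for CCND1 and 8.55 times for CDKN1A, against 3.74 times for CCND2 and 1.34 times for CDK2, the steadiest member by this measure.

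**Figure D1:**
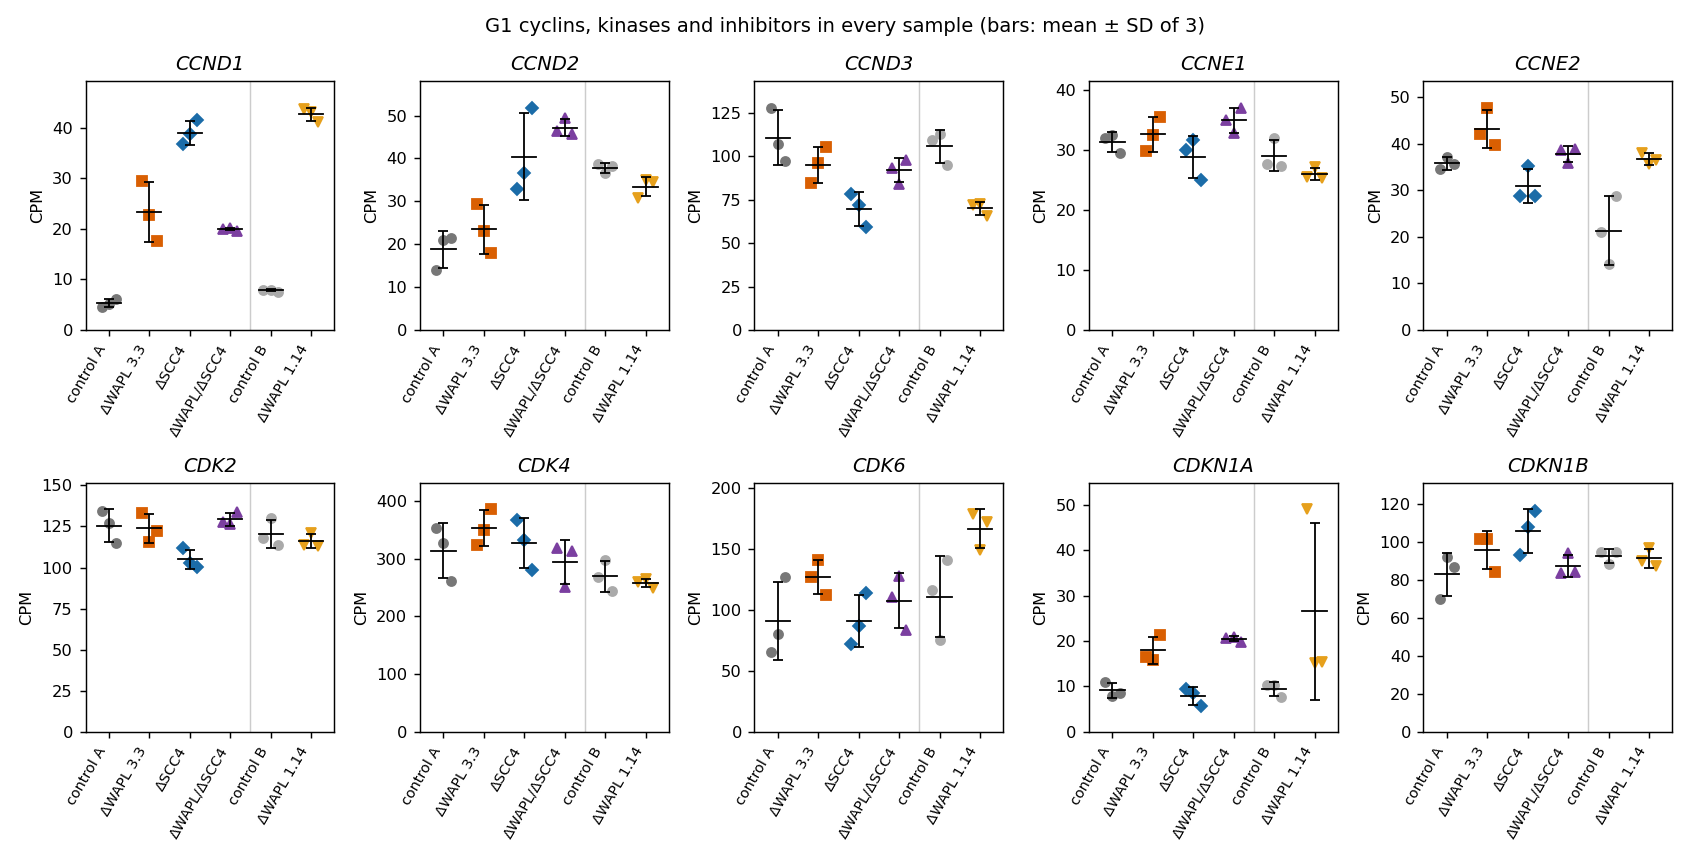
CPM of the 10 genes in each of 18 samples, by group, with all axes starting at 0; points are samples, bars the mean ± SD of 3, and the grey line parts set A from set B. CCND1 lay between 4.56 and 8.0 CPM in the 6 controls and between 17.7 and 43.7 CPM in the 12 knockout samples, while CDKN1A in *ΔSCC4* lay among the controls and 1 sample of clone 1.14 reached 49.0 CPM.

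CCND1, the D cyclin that couples mitogen signals to CDK4 and CDK6, was higher in all 12 knockout samples than in any control. In control A it was at 4.56, 5.18 and 6.14 CPM, and in clone 3.3 at 29.5, 22.8 and 17.7 CPM. The groups did not overlap, and the log2 fold change was 2.12 ± 0.20 (SE), or 4.35-fold. In control B it was at 8.0, 8.0 and 7.60 CPM and in clone 1.14 at 43.7, 43.2 and 41.2 CPM, a log2 fold change of 2.44 ± 0.07. The levels of the clones did not overlap. Their controls did not overlap either, with control B higher by 0.56 ± 0.15, and the fold change of clone 3.3 minus that of clone 1.14 was -0.30 ± 0.24.

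The 3 *ΔSCC4* samples held CCND1 at 36.7, 38.7 and 41.5 CPM, a log2 fold change of 2.86 ± 0.16 against control A and the largest of the 4 knockout groups against their controls. In *ΔWAPL*/*ΔSCC4* cells it was at 20.0, 20.2 and 19.7 CPM, which is 1.91 ± 0.14 above control A. These 3 samples lay within the range of clone 3.3, with a difference of -0.23 ± 0.16, and below every *ΔSCC4* sample, with a difference of -0.97 ± 0.13. Thus WAPL knockout went with a higher CCND1 level in cells with SCC4 and with a lower level in cells without it, while all 3 knockout genotypes stayed above control. The *ΔSCC4* and *ΔWAPL*/*ΔSCC4* cells were derived separately, so a difference between lines cannot be told apart from one due to WAPL. Control A gave 70 to 103 reads per sample on CCND1, so its level there carries the widest counting error of the 6 groups.

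Leaving out any 1 sample kept the CCND1 log2 fold change between 1.93 and 2.28 in clone 3.3, between 2.40 and 2.46 in clone 1.14, between 2.77 and 2.98 in *ΔSCC4* and between 1.83 and 2.03 in *ΔWAPL*/*ΔSCC4* cells. CCND1 lies at chr11:69455924-69469242 on the plus strand of GRCh37, and its exons share 497 bases with those of LTO1 on the minus strand. LTO1 was between 17.5 and 30.5 CPM over the 18 samples and passed the test in no comparison. The authors counted reads by strand.

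CCND2, the D cyclin gene on chromosome 12, rose with loss of SCC4 but also differed between the control sets. Control A had 13.9, 21.1 and 21.3 CPM, *ΔSCC4* 32.8, 36.7 and 51.8 CPM, and *ΔWAPL*/*ΔSCC4* 46.4, 49.4 and 45.8 CPM. The log2 fold change against control A was 1.10 ± 0.22 in *ΔSCC4* (edgeR adjusted p = 0.00899) and 1.33 ± 0.16 in *ΔWAPL*/*ΔSCC4* (edgeR adjusted p = 0.000417). Clone 3.3, with 29.4, 23.1 and 17.9 CPM, overlapped control A (edgeR adjusted p = 0.502) and lay below its SCC4 knockout derivative, which had a log2 fold change of 1.00 ± 0.16 over it (edgeR adjusted p = 0.000314).

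Control B had CCND2 at 38.6, 36.5 and 38.3 CPM, above every control of set A by a log2 fold change of 1.00 ± 0.17 (edgeR adjusted p = 0.0376). This difference between untreated cells was about as large as that between *ΔSCC4* and control A. It passed the threshold in neither of the fits without the first or second control A sample (adjusted p = 0.0634 and 0.219) nor in those without the first or the third control B sample (adjusted p = 0.147 and 0.0531), and it was lost with the size factors of DESeq2 (adjusted p = 0.0586). Clone 1.14, with 30.8, 35 and 34.5 CPM, lay below its controls, but the difference of -0.18 ± 0.07 did not pass the test (edgeR adjusted p = 0.113).

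CCND3, the most abundant D cyclin, went the other way. It was at 128, 107 and 97.1 CPM in control A and at 78.2, 71.8 and 59.2 CPM in *ΔSCC4*, where it fell by 0.68 ± 0.16 on the log2 scale (edgeR adjusted p = 0.0209). The call was lost without the second control A sample (adjusted p = 0.0764) and without the second or the third *ΔSCC4* sample (adjusted p = 0.0896 and 0.0566). In clone 1.14 it was at 72.0, 72.4 and 65.8 CPM against 109.5, 113 and 95.1 CPM in control B, a fall of 0.60 ± 0.08 (edgeR adjusted p = 0.00264). Clone 3.3 had 84.4, 95.9 and 105 CPM, which overlapped its controls at a difference of -0.24 ± 0.16 (edgeR adjusted p = 0.530), and the fold change of clone 3.3 minus that of clone 1.14 was 0.38 ± 0.17 (edgeR adjusted p = 0.445). *ΔWAPL*/*ΔSCC4* cells, at 93.4, 84.3 and 98.0 CPM, were above every *ΔSCC4* sample by 0.40 ± 0.14 (edgeR adjusted p = 0.0379). That call was lost without the second or the third *ΔSCC4* sample (adjusted p = 0.114 and 0.0991), without the first or the third *ΔWAPL*/*ΔSCC4* sample (adjusted p = 0.115 and 0.127) and in the fit blocked by replicate (adjusted p = 0.0501).

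The make-up of the D cyclins therefore differed between the groups more than their sum. Per kilobase, the 3 genes summed to 58.7 ± 6.99 CPM per kb in control A, 56.1 ± 2.87 in clone 3.3, 49.9 ± 2.67 in *ΔSCC4*, 57.3 ± 3.09 in *ΔWAPL*/*ΔSCC4*, 59.9 ± 4.60 in control B and 49.8 ± 2.02 in clone 1.14. CCND1 made up 2.17% ± 0.565 of this sum in control A and 3.11% ± 0.155 in control B. It made up 9.91% ± 3.03 in clone 3.3, 18.5% ± 2.16 in *ΔSCC4*, 8.23% ± 0.545 in *ΔWAPL*/*ΔSCC4* and 20.2% ± 0.339 in clone 1.14. CCND3 held the largest share in every group, from 92.8% in control A down to 68.8% in *ΔSCC4* and 69.4% in clone 1.14. These shares were not tested, since CCND1 enters them.

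**Figure D2:**
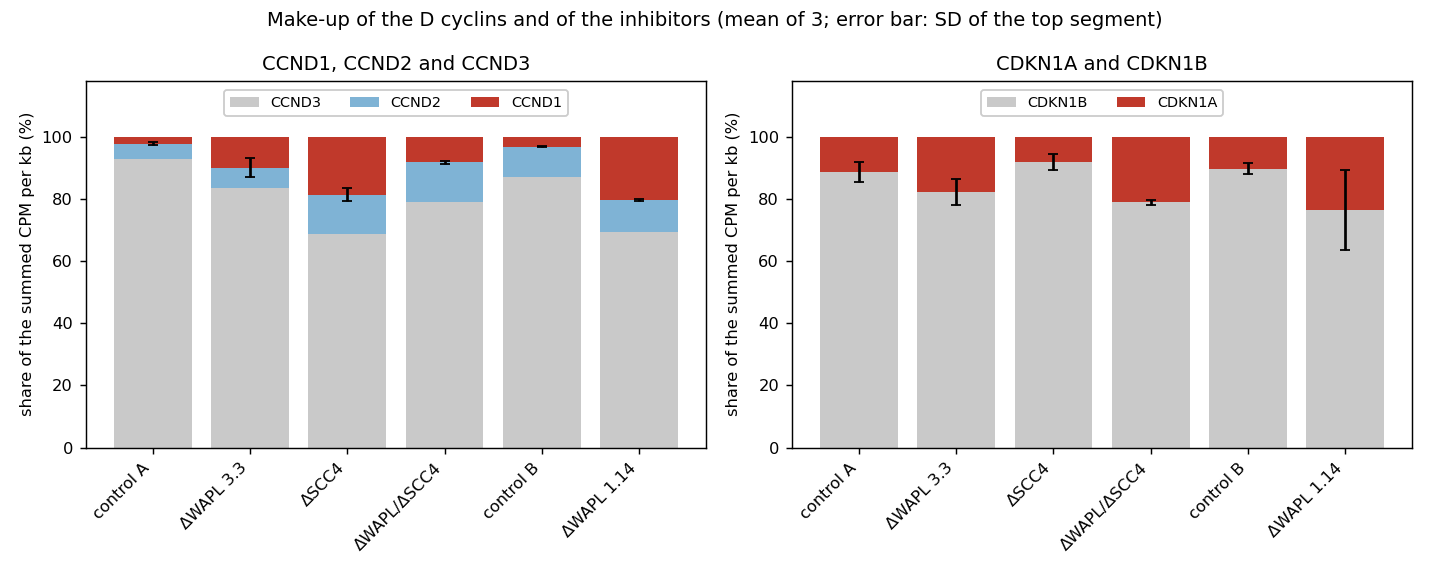
Stacked bars of the share (%) of each D cyclin in their summed CPM per kb, and of each inhibitor in theirs, as the mean of 3 samples per group; the error bar is the SD of the top segment. CCND1 grew from 2.17% in control A to 18.5% in *ΔSCC4*, and CDKN1A from 11.3% in control A to 21.1% in *ΔWAPL*/*ΔSCC4*.

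The E cyclins activate CDK2 at the entry into S phase. CCNE1 stayed between 25.0 and 37.1 CPM in all 18 samples and passed the test in none of the 8 comparisons. CCNE2 was at 42.2, 47.8 and 39.7 CPM in clone 3.3, above each of the control A samples at 34.5, 37.2 and 35.7 CPM, but the difference of 0.25 ± 0.14 did not pass (edgeR adjusted p = 0.415). In clone 1.14 it was at 38.0, 35.6 and 36.6 CPM against 21.1, 14.1 and 28.8 CPM in control B, and rose by 0.77 ± 0.22 (edgeR adjusted p = 0.0459). Clone 1.14 lay close to control A in level, and control B was the group that stood low, at -0.76 ± 0.22 against control A (edgeR adjusted p = 0.204). The lowest CCNE2 value was in the second control of set B, the sample with 110 genes lower than in both others. The rise of CCNE2 no longer passed the threshold without the first control B sample (adjusted p = 0.154) or without any 1 of the clone 1.14 samples (adjusted p = 0.151, 0.119 and 0.137), nor with a minimum of 10 counts in each sample (adjusted p = 0.0523).

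Of the kinases, CDK4 and CDK2 were steady and CDK6 varied within groups. CDK4 was between 244 and 386 CPM, and CDK2 between 100.5 and 134 CPM, and edgeR with a separate unblocked fit per comparison called neither. CDK2 in *ΔSCC4*, at 112, 103 and 100.5 CPM against 134, 127 and 115 CPM in control A, differed by -0.27 ± 0.13 (edgeR adjusted p = 0.231) and was called in 1 fit over all 18 samples (-0.26, edgeR adjusted p = 0.0479). For CDK2 in *ΔWAPL*/*ΔSCC4* against *ΔSCC4* cells the difference was 0.30 ± 0.12 (edgeR adjusted p = 0.0671), which passed with DESeq2 (adjusted p = 0.0460) and in the fit over all samples (edgeR adjusted p = 0.0150). CDK6 had 65.1, 80.2 and 127 CPM in control A and 128, 141 and 113 CPM in clone 3.3, which overlap, with a log2 fold change of 0.47 ± 0.20 (edgeR adjusted p = 0.219). Without the third control A sample the fold change was 0.79 (edgeR adjusted p = 0.00436). In clone 1.14 all samples, at 179, 149 and 173 CPM, lay above those of control B, at 116, 75.8 and 141 CPM, by 0.58 ± 0.20 (edgeR adjusted p = 0.0859). CDK6 passed the threshold there with DESeq2 (adjusted p = 0.0235), and with edgeR without the second or the third control B sample (adjusted p = 0.0269 and 0.0136). CDK4 held most of the summed CDK4 and CDK6 level per kilobase in every group, from 90.6% ± 0.963 in clone 1.14 to 95.6% ± 1.55 in *ΔSCC4*. CDK4 shares exon bases with TSPAN31 (1369 bases) and CCNE2 with INTS8 (1629 bases), in both cases a gene on the opposite strand.

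CDKN1A, the p53-induced inhibitor, was higher in every sample without WAPL than in every control of its set, whether or not SCC4 was present. Control A had 10.9, 7.89 and 8.52 CPM, clone 3.3 had 16.6, 15.9 and 21.4 CPM, and *ΔWAPL*/*ΔSCC4* had 20.8, 21.0 and 19.9 CPM. The log2 fold changes against control A were 0.96 ± 0.19 and 1.17 ± 0.15, and the 2 groups without WAPL overlapped, with a difference of 0.20 ± 0.14. The *ΔSCC4* samples, at 9.49, 8.45 and 5.74 CPM, overlapped the controls at -0.22 ± 0.22. Against them the *ΔWAPL*/*ΔSCC4* samples were higher by 1.38 ± 0.17.

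In set B the level rested on 1 sample. Control B had 10.2, 10.4 and 7.60 CPM, and clone 1.14 had 49.0, 15.2 and 15.5 CPM, from 925, 256 and 256 reads. The log2 fold change was 1.51 ± 0.48 with all samples and 0.71 without the first sample of clone 1.14. With that sample left out the difference between the clones changed sign, from -0.53 to 0.27, with clone 3.3 then showing the larger fold change. Among the 10058 well expressed genes, the other one that stood above both other samples by more than 1 in this library was BTG2, an antiproliferative gene that p53 also induces, with 111, 44.8 and 44.1 CPM. Over the 20 p53 target genes measured besides these 2, the first sample differed from the mean of the others by a median of 0.22 on the log2 scale, with 18 of 20 above 0. The largest differences were 1.69 for PHLDA3 and 1.25 for GADD45A, a pair of genes expressed below the level set for that count. The same median and share over all genes were not computed, so these values do not set the p53 targets apart.

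CDKN1B, the inhibitor that holds CDK2 in check in quiescent cells, was the more abundant of the pair. It lay between 70.2 and 116 CPM in all samples. It was higher in each *ΔSCC4* sample (93.4, 108 and 116 CPM) than in each control A sample (70.2, 92.3 and 86.8 CPM), by 0.34 ± 0.15 (edgeR adjusted p = 0.203). This difference was called in the fit blocked by replicate (0.34 ± 0.06, edgeR adjusted p = 0.00114) and in 1 fit over all 18 samples (0.35, edgeR adjusted p = 0.0378). Per kilobase, CDKN1A made up 11.3% ± 3.29 of both inhibitors together in control A and 10.3% ± 1.78 in control B. The share was 17.7% ± 4.07 in clone 3.3, 21.1% ± 0.915 in *ΔWAPL*/*ΔSCC4*, 7.96% ± 2.53 in *ΔSCC4* and 23.4% ± 12.9 in clone 1.14.

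Counts of calls on the 8 tested members can be set beside those on all genes. Shares of all genes called, here and below, count calls in both directions. In clone 3.3 edgeR called 0 of 8 (1 at an unadjusted p under 0.05, and 0 with DESeq2), where 8.07% of all genes tested were called. In clone 1.14 it called 2 of 8, CCNE2 up and CCND3 down, where 20.1% of all genes were called. In *ΔSCC4* it called 2 of 8, CCND2 up and CCND3 down, with 9.49% of all genes called. In *ΔWAPL*/*ΔSCC4* cells only CCND2 was called against control A, with 7.95% of all genes called, and only CCND2 against clone 3.3, with 10.6%. Against *ΔSCC4* cells CCND3 alone was called, where 27.3% of all genes were. Between the controls CCND2 alone was called, with 0.640% of all genes called, and for the difference between the clones edgeR called 0 of 8 (1 at an unadjusted p under 0.05, and 0 with DESeq2), with 2.65% of all genes called. With so few members, these counts do not set the list apart from other genes.

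For *ΔSCC4* against control A the deviations of same-numbered samples correlated at 0.675, 0.115 and 0.615, and a pairing by number was read from these same data. In the fit blocked by replicate, which assumes that pairing, 5 of 8 members were called, where 46.0% of all genes were. CCND2 (1.10 ± 0.10, edgeR adjusted p = 9.85e-06) and CCND3 (-0.68 ± 0.06, edgeR adjusted p = 7.17e-06) were called as before. CDKN1B rose (edgeR adjusted p = 0.00114), while CDK2 fell by 0.27 ± 0.05 (edgeR adjusted p = 0.00235) and CCNE2 fell by 0.23 ± 0.07 (edgeR adjusted p = 0.0250). CCNE1, CDK4 and CDK6 were not called in this fit.

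**Figure D3:**
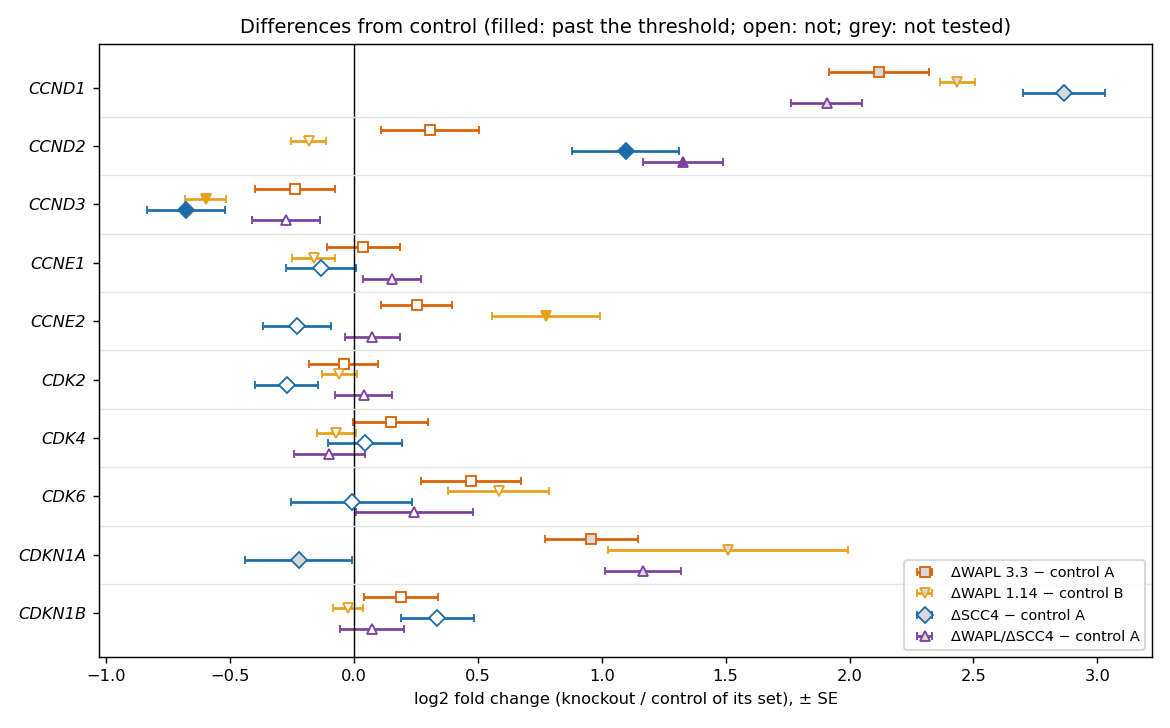
Log2 fold change (± SE) of each member in the 4 knockout groups against the control of their set, from fits without the replicate block; filled symbols passed the threshold, open ones did not, and CCND1 and CDKN1A, in grey, were not tested. CCND1 lay between 1.91 and 2.86 in all 4 groups, and CDKN1A lay between 0.96 and 1.51 in the 3 groups without WAPL and at -0.22 in *ΔSCC4*.

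CCND1 and CDKN1A, a cyclin and an inhibitor of the same complexes, thus differed in which knockouts they followed. Over the 18 samples their log2 CPM had a Pearson correlation of 0.377 and a Spearman correlation of 0.247, a description of samples that fall into groups. Both were high in the groups without WAPL, whereas the *ΔSCC4* samples paired CCND1 levels of 36.7 to 41.5 CPM with CDKN1A levels of 5.74 to 9.49 CPM.

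**Figure D4:**
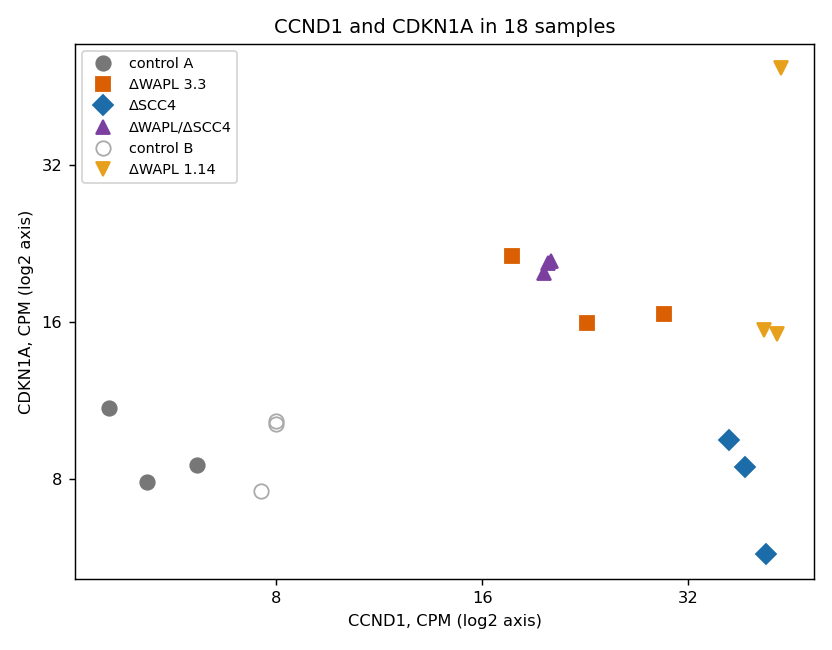
CPM of CCND1 and CDKN1A in each of 18 samples on log2 axes, with 1 symbol per group. The *ΔSCC4* samples sit at high CCND1 and at the CDKN1A level of the controls, and the first sample of clone 1.14 stands alone at 49.0 CPM of CDKN1A.

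Among 10057 other genes whose mean log2 CPM reached 3, the genes whose log2 CPM went most closely with CCND1 over the 18 samples were OLFM1 (Pearson r = 0.950), FRMD4A (0.944), LRRC1 (0.934), ATP10D, a lipid-flippase family member (0.932), and NRIP1, a nuclear receptor corepressor (0.926). The most opposite was PIM1, a serine/threonine kinase (-0.955), which was at 37.1 to 41.3 CPM in all 6 controls and at 20.1 to 23.3 CPM in *ΔSCC4*. For CDKN1A they were SEMA3F, a secreted semaphorin (0.853), EFHD1 (0.812), SERPINF1, a secreted serpin (0.808), MXRA8 (0.801) and STAT6, a transcription factor of cytokine signalling (0.794), and the most opposite was DPP10 (-0.882). SERPINF1 was between 97.0 and 148 CPM in the 9 samples without WAPL and between 21.2 and 38.2 CPM in the other 9. These points share libraries and group differences, and say how alike the profiles were, not that the genes are linked.

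The genes next to CCND1 and CDKN1A did not follow them as a block. Of 6 protein-coding neighbours within 500 kb of CCND1, 2 were high enough to be tested and 1 passed. That gene, FGF19, a secreted growth factor 43.8 kb away, was at most 2.02 CPM in any sample and fell by 2.52 ± 0.33 in clone 1.14 (edgeR adjusted p = 0.00188) and by 1.85 ± 0.47 in *ΔSCC4* (edgeR adjusted p = 0.0340). Of 16 neighbours of CDKN1A, 9 were tested and 4 passed in at least 1 comparison. Single comparisons called from 0.640% to 27.3% of all genes. The share of all genes passing in at least 1 was not computed, so the counts do not set either group of neighbours apart. PIM1, 482.8 kb away, fell by 0.80 ± 0.07 in clone 1.14 (edgeR adjusted p = 0.000245) and by 0.86 ± 0.14 in *ΔSCC4* (edgeR adjusted p = 0.00252), and it was higher in *ΔWAPL*/*ΔSCC4* than in *ΔSCC4* cells by 0.51 ± 0.13 (edgeR adjusted p = 0.00992). BRPF3, a chromatin reader protein, rose by 0.64 ± 0.13 in *ΔSCC4* (edgeR adjusted p = 0.0116) and was lower in *ΔWAPL*/*ΔSCC4* than in *ΔSCC4* cells by a log2 fold change of -0.76 ± 0.12 (edgeR adjusted p = 0.000196). KCTD20 and the splicing factor SRSF3 each passed in 1 comparison between knockouts, at 0.63 and -0.35.

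The rest of the G1 pathway was read from lists fixed by function. The INK4 and CIP genes outside the members (CDKN1C, CDKN2A, CDKN2B, CDKN2C, CDKN2D) all passed the filter on low counts. In *ΔSCC4* 2 of 5 rose, where 9.49% of all genes were called. CDKN2A rose by 0.74 ± 0.15 (edgeR adjusted p = 0.00982) and CDKN2C, an inhibitor of CDK4 and CDK6, by 0.72 ± 0.14 (edgeR adjusted p = 0.00665). The median over the list was 0.72 against -0.0047 over all genes. CDKN2C was at 98.6 to 111 CPM in *ΔSCC4* and at 55.8 to 69.6 CPM in control A. The count was 1 without the second control A sample. In *ΔWAPL*/*ΔSCC4* cells, 3 of 5 were lower than in *ΔSCC4*, where 27.3% of all genes were called. They were CDKN2B (-1.11 ± 0.31), CDKN2C (-0.65 ± 0.12) and CDKN2A (-0.52 ± 0.14). CDKN2A also rose in clone 1.14 (0.27 ± 0.07, edgeR adjusted p = 0.0433), but DESeq2 called 0 of 5 there, and so did edgeR without the first control B sample or without any 1 sample of clone 1.14.

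The E2F targets that drive DNA replication, 19 of which were measured, showed few calls and a common sign in *ΔSCC4*. There 2 of 19 fell, where 9.49% of all genes were called, the replication licensing factor CDC6 by 0.69 ± 0.13 (edgeR adjusted p = 0.00578) and the helicase subunit MCM6 by 0.55 ± 0.12 (edgeR adjusted p = 0.0125). All 19 had a fold change below 0, with a median of -0.32. With the replicate block 16 of 19 fell. In that fit 46.0% of all genes were called in either direction, and 2960 of 12503 fell. The count without the block was 1 when the second control A sample or the first or the second *ΔSCC4* sample was left out, 3 without the third *ΔSCC4* sample and 5 without the first control A sample. In *ΔWAPL*/*ΔSCC4* cells 6 of 19 rose over *ΔSCC4* and 0 fell. There 27.3% of all genes were called in either direction, and 1732 of 12604 rose. Among the 6 were CDC6 (0.75 ± 0.13), RRM2 (0.44 ± 0.12) and POLA1 (0.42 ± 0.14). The median over the list was 0.23. Without the second *ΔSCC4* sample 3 of 19 rose. Both comparisons use the same *ΔSCC4* samples. Against control A, edgeR called 0 of 19 in *ΔWAPL*/*ΔSCC4* and 0 of 19 in clone 3.3 (0 at an unadjusted p under 0.05 and 0 with DESeq2 in each), and in clone 1.14 only MCM6 was called, at -0.43 ± 0.06.

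Pocket proteins, E2F and DP factors, 13 genes, had 0 calls by edgeR in clone 3.3 and in *ΔSCC4* (1 at an unadjusted p under 0.05 and 0 with DESeq2 in each). With the replicate block, 10 of 13 were called in *ΔSCC4*, 9 of them down, where 46.0% of all genes were called. Without the block the median was -0.21, and 2 were called when the first control A or the third *ΔSCC4* sample was left out. In clone 1.14 the repressor E2F7 rose by 0.77 ± 0.07 and TFDP2 by 0.38 ± 0.05, and E2F2 fell by 0.32 ± 0.06. These are 3 of 13, where 20.1% of all genes were called, and the count was 5 without the third control B sample. In *ΔWAPL*/*ΔSCC4* against *ΔSCC4* cells 4 of the 13 were called, 3 up and 1 down, where 27.3% of all genes were called. RBL1, a relative of the retinoblastoma protein, was higher by 0.96 ± 0.27, though its levels overlapped between the groups. E2F8 (0.66 ± 0.18) and E2F7 (0.53 ± 0.18) were also higher, and TFDP2 was lower (-0.53 ± 0.14). With any 1 sample left out, 1 to 5 of the 13 were called. Of 12 genes of cyclin and inhibitor turnover and activation, 2 were called in that comparison. SKP2, which targets CDKN1B for degradation, was higher (0.65 ± 0.16) and AMBRA1 was lower (-0.42 ± 0.14). Of these 12 genes 3 fell in clone 1.14, namely USP2 (-0.50 ± 0.10), FBXO31 (-0.28 ± 0.08) and the CDK-activating kinase CDK7 (-0.28 ± 0.06). There 20.1% of all genes were called in either direction, and 1437 of 12636 fell. DESeq2 called 1 of the 12. The edgeR count was 0 without the first control B or the third clone 1.14 sample. It was 1 without the first or the second clone 1.14 sample, and 7 without the third control B sample. In clone 3.3 edgeR called 0 of these 12 (1 at an unadjusted p under 0.05, and 0 with DESeq2). Of 15 genes of G2 and mitosis, BUB1 alone fell in *ΔSCC4* (-0.52 ± 0.15), where 9.49% of all genes were called. With the replicate block 10 of 15 fell, where 46.0% of all genes were called in either direction and 2960 of 12503 fell. The call on BUB1 was lost without the second or the third control A sample and without the first or the second *ΔSCC4* sample, where 0 of 15 were called, and 3 were called without the first control A sample. In clone 1.14 the mitotic genes AURKB and KIF20A fell by 0.30 ± 0.08 and 0.23 ± 0.06, 2 of 15 where 20.1% of all genes were called. This count was 0 without the first control B sample or any 1 sample of clone 1.14, and 11 without the third control B sample.

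Calls on p53 targets other than CDKN1A went in both directions in the *ΔWAPL* clones. Of 21 tested, 3 were called in clone 3.3, where 8.07% of all genes were. FAS alone rose there, by 0.67 ± 0.18 (edgeR adjusted p = 0.0323), while TP53I3 fell by 0.88 ± 0.18 and BTG2 by 0.74 ± 0.15. The count in clone 3.3 was 2 with DESeq2. It was also 2 in edgeR when any 1 sample but the third of clone 3.3 was left out. In clone 1.14, where 20.1% of all genes were called, 3 of 21 were. SESN1 and FAS rose, by 0.89 ± 0.17 and 0.67 ± 0.19, and TP53I3 fell by 0.75 ± 0.17. This count of 3 was 1 without the first control B or the first clone 1.14 sample, 2 without the second control B sample or the second or the third clone 1.14 sample, and 5 without the third control B sample. In *ΔSCC4*, where CDKN1A overlapped the controls, PHLDA3 rose by 0.76 ± 0.17 and TP53I3 by 0.71 ± 0.18, 2 of 21 where 9.49% of all genes were called. The fit blocked by replicate called 7 of 21, 6 up and 1 down, a lower share than the 46.0% called over all genes. Without the block, 0 of 21 were called when the third control A sample or the first or the second *ΔSCC4* sample was left out, 1 without the second control A sample and 3 without the first. In *ΔWAPL*/*ΔSCC4* cells edgeR called 0 of 21 against control A (5 at an unadjusted p under 0.05, and 0 with DESeq2), where 7.95% of all genes were called. The medians over the list stayed between -0.01 and 0.05 in these 4 comparisons.

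Genes that report ERK signalling, 16 tested, had the most calls among the lists in clone 3.3, where 8.07% of all genes were called. There 4 rose, the transcription factors ETV4 (1.51 ± 0.21, edgeR adjusted p = 0.000163) and ETV5 (1.02 ± 0.24), and the feedback inhibitors SPRY1 (1.27 ± 0.19) and DUSP4 (1.14 ± 0.21). In clone 1.14, 5 of 16 were called, where 20.1% of all genes were. SPRY1 (0.87 ± 0.17) and DUSP4 (0.68 ± 0.14) rose, and JUN (-0.78 ± 0.13), PHLDA1 (-0.44 ± 0.10) and MYC fell. DESeq2 called 3 of 16 there, and edgeR called 2 without the first clone 1.14 sample and 3 without the second or the third or without the first control B sample. ETV5, at 0.74 ± 0.22, was close to the threshold (edgeR adjusted p = 0.0509). In *ΔSCC4*, JUN (0.98 ± 0.17) and EGR1 (0.84 ± 0.20) rose, 2 of 16 where 9.49% of all genes were called. The fit blocked by replicate called 8 of 16, 6 up and 2 down, a share close to the 46.0% called over all genes. Without the block, 1 of 16 was called when the second or the third control A sample or the first *ΔSCC4* sample was left out. In *ΔWAPL*/*ΔSCC4* cells 4 of 16 were called against control A, where 7.95% of all genes were. ETV4 (1.21 ± 0.16), EGR1 (1.03 ± 0.16) and JUN (0.94 ± 0.15) rose and PHLDA1 fell by 1.17 ± 0.22. Against clone 3.3, edgeR called 8 of 16 in *ΔWAPL*/*ΔSCC4* cells, 3 up and 5 down, where 10.6% of all genes were called. The largest were JUN (1.35 ± 0.17), ETV5 (-1.19 ± 0.29), SPRY1 (-1.05 ± 0.17) and EGR1 (0.92 ± 0.17). DESeq2 called 6 there, and edgeR 5 to 7 with any 1 sample left out. Against *ΔSCC4* cells 2 of 16 were called (1 with DESeq2), ETV4 (1.52 ± 0.20) and FOSL1 (-0.45 ± 0.16), where 27.3% of all genes were. *ΔSCC4* and clone 3.3 were not compared directly, and a link of these genes to CCND1 was not tested.

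**Figure D5:**
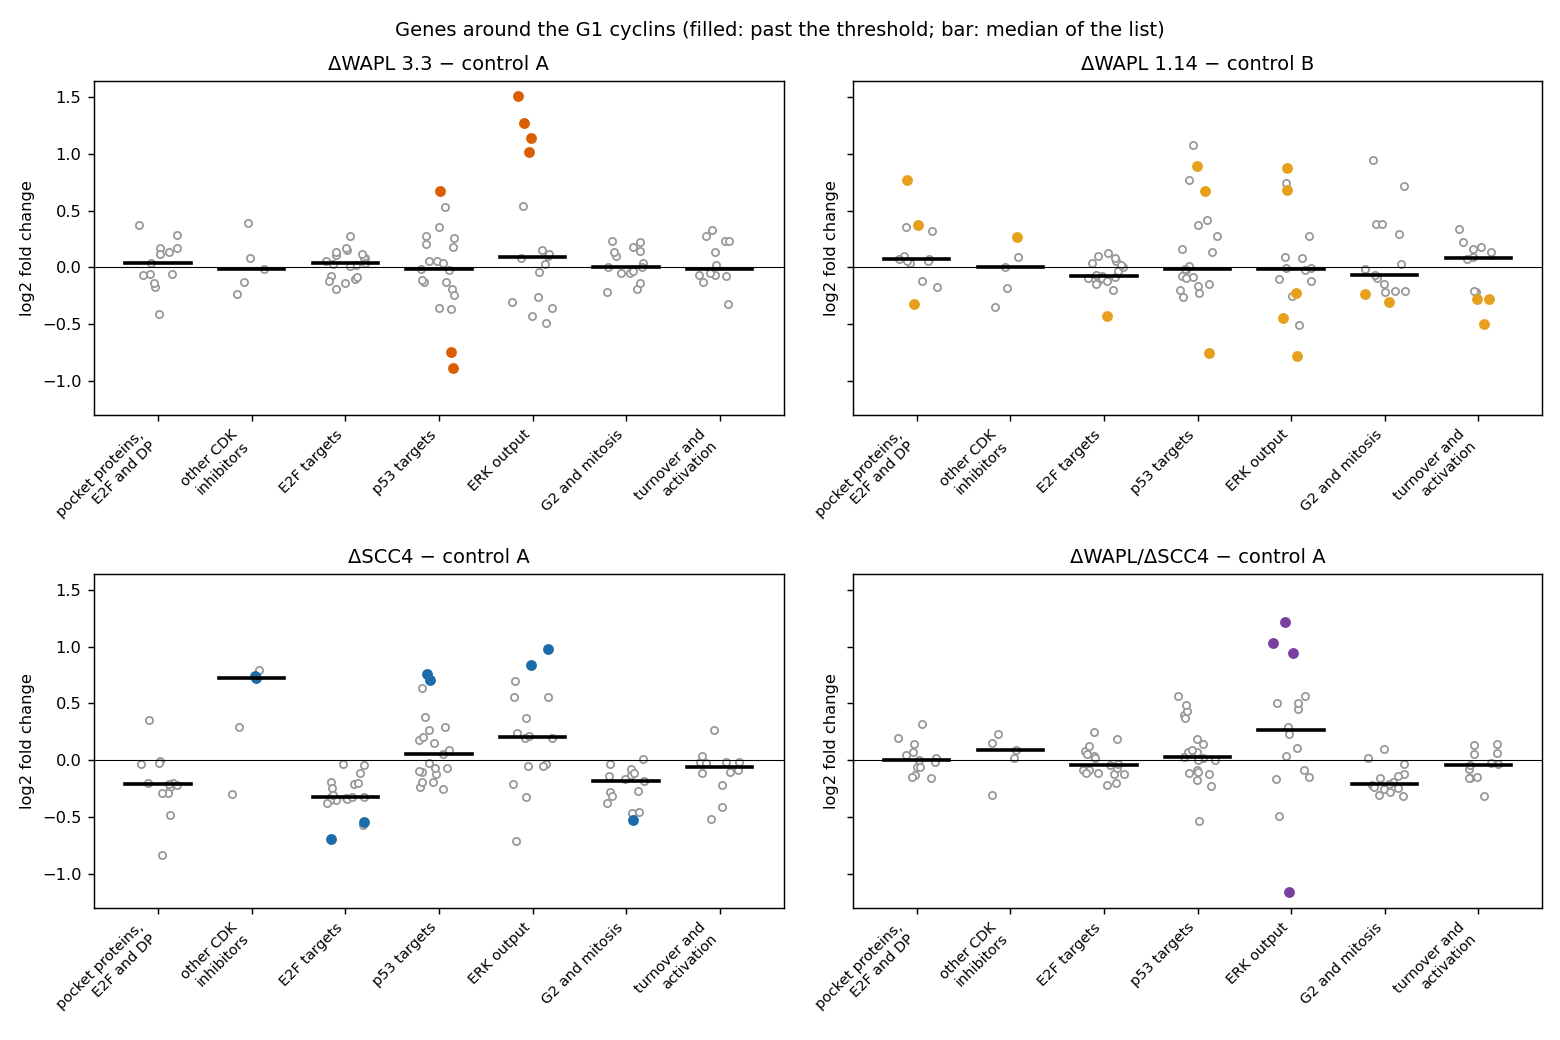
Log2 fold change of each tested gene in 7 lists around the G1 cyclins, in the 4 knockout groups against the control of their set; filled points passed the threshold without the replicate block and black bars are the medians of the lists. The E2F targets lie below 0 in *ΔSCC4*, with a median of -0.32, and 4 of 16 ERK output genes passed in clone 3.3, where 8.07% of all genes did.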

How the data were processed

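The authors aligned strand-specific reads of polyadenylated RNA to hg19 with TopHat2 (2.0.9 in the submitters' processing notes, where the methods name another version) and deposited raw counts of reads per gene made with HTSeq. The annotation they used is not given in the sources used here. Of 20329 gene identifiers, 96.6% were found in the GRCh37 annotation. The members and gene lists were chosen with earlier results of these data known. Named genes were all members, WAPL and MAU2, at most 4 called genes per list and comparison by size of fold change, the neighbours, and the 5 genes most alike CCND1 and CDKN1A. One gene that this rule would name is not reported here.

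Counts were tested with edgeR 4.0.16 (quasi-likelihood test, TMM, filterByExpr) in R 4.3.3, separately for each comparison, with Benjamini-Hochberg adjusted p-values over all genes tested. Standard errors were obtained by dividing the absolute log2 fold change by √F. The fits were tested on simulated data. No replicates were identical (chi-square per degree of freedom 1.606 to 51.99). Set membership of the knockout samples came from the run number in the file names, whereas the labels mark it for controls alone. For *ΔSCC4* against control A the deviations of same-numbered samples correlated at 0.675, 0.115 and 0.615, and the replicate block takes these numbers to pair the samples. This pairing was read from the same data. Samples of unlike number reached 0.573 in clone 3.3 against control A and 0.618 in *ΔWAPL*/*ΔSCC4* against control A. The blocked calls therefore hold only if the numbers do pair the samples. In no other comparison did every same-numbered pair exceed 0.1. Alternatives were DESeq2 1.42.0, edgeR with DESeq2 size factors, an unfiltered table, a minimum of 10 counts per sample, 1 fit over all 18 samples, the replicate block and leaving out each sample.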

Additional observations from a re-analysis of the deposited data

Results flagged for a closer look

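ETV4, a transcription factor that reports ERK signalling, differed between the *ΔWAPL* clones: the test of the difference gave 1.43 on the log2 scale (edgeR adjusted p = 0.00735). It was at 5.83, 7.0 and 8.04 CPM in clone 3.3 against 2.74, 2.22 and 2.27 CPM in control A, and at 5.25, 6.11 and 5.98 CPM in clone 1.14 against 5.81, 6.45 and 4.11 CPM in control B. The knockout levels overlapped and the controls did not.

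CCND1 was higher without WAPL among set A lines with SCC4 and lower without WAPL among lines lacking SCC4. With SCC4 present, in clone 3.3 against control A, every sample without WAPL was higher, at a log2 fold change of 2.12. With SCC4 disrupted, in *ΔWAPL*/*ΔSCC4* against *ΔSCC4* cells, every sample without WAPL was lower, at -0.97. The *ΔWAPL*/*ΔSCC4* cells were derived from clone 3.3 and not from the *ΔSCC4* cells. A difference between lines and an effect of WAPL loss therefore cannot be told apart, and the difference between the 2 fold changes was not tested.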

How the results depend on the processing

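Over the 8 tested members and 8 comparisons, edgeR without a filter kept all 64 results on their side of the threshold with their direction, and DESeq2 kept 62. With 3 samples a group and 70 to 103 reads on CCND1 in control A, small changes of low genes could not be resolved. In 1 fit over all 18 samples the genes called numbered 1753 in clone 3.3, 2556 in *ΔSCC4* and 408 between the controls. With the replicate block they numbered 5754 in *ΔSCC4*, 162 between the controls and 173 for the difference between the clones. Outside *ΔSCC4* against control A the numbers were not taken to pair the samples. There the block called CDK6 in clone 1.14 (adjusted p = 0.0204) and lost CCND3 in *ΔWAPL*/*ΔSCC4* against *ΔSCC4*. Between the controls DESeq2 called 168 and the unfiltered fit 127, and a minimum of 10 counts gave 211 for the clones. The cause of these shifts was not tested. CDK6 in *ΔSCC4* changed sign to 0.0146 with the block and 0.0023 in the single fit.

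Leaving out 1 sample at a time, the genes called ranged from 686 to 1180 in clone 3.3, 1415 to 4820 in clone 1.14, 662 to 2317 in *ΔSCC4*, 586 to 1552 in *ΔWAPL*/*ΔSCC4* against control A, 861 to 1805 against clone 3.3, 2080 to 5020 against *ΔSCC4*, 0 to 107 between the controls and 218 to 372 for the clones. CDKN1A in clone 1.14 ranged from 0.71 to 1.80. Uncalled log2 fold changes that changed sign ranged, in clone 3.3, from -0.04 to 0.12 for CCNE1 and -0.10 to 0.021 for CDK2. In clone 1.14 they ranged from -0.10 to 0.0046 for CDK2, -0.14 to 0.01 for CDK4 and -0.054 to 0.005 for CDKN1B, and in *ΔSCC4* from -0.075 to 0.15 for CDK4 and -0.20 to 0.31 for CDK6. In *ΔWAPL*/*ΔSCC4* against control A they ranged from -0.022 to 0.11 for CDK2, -0.22 to 0.017 for CDK4 and -0.017 to 0.15 for CDKN1B, and against clone 3.3 from -0.13 to 0.028 for CCND3. Between the controls they ranged from -0.17 to 0.062 for CCND3 and -0.14 to 0.0014 for CDK2, and for the clones from -0.025 to 0.078 for CDK2, -0.31 to 0.22 for CDK6 and -0.81 to 0.27 for CDKN1A.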
